A study of Mus musculus with 2 samples.

Results

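Myofibroblast-like wound fibroblasts are fibroblasts with a raised sum of RNA from periostin (Postn), Lrrc15, transgelin (Tagln), smooth muscle alpha-actin (Acta2) and Cthrc1, of which a cell need not hold each. They were chosen by a rule on measured values. A barcode had at least 200 genes and at most 15% mitochondrial unique molecular identifiers (UMIs). It was a fibroblast if Col1a1, Col1a2, Col3a1 and Dcn made up at least 0.5% of its UMIs, at least 1 UMI of Pdgfra or Lum was present, and Ptprc, Pecam1 and Rgs5 had at most 1, 1 and 2 UMIs. It was a member if the 5 gate genes made up at least 0.1% of its UMIs. By this rule 1201 of 31252 kept barcodes were members, out of 3961 fibroblasts in all.

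Both groups were mice with ulcerative dermatitis, whose skin was stripped with tape 40 to 50 times a day for 15 days. The library labelled TG came from lesional skin of the genotype whole-body Has2 overexpression, and the library labelled WT from lesional skin of wild-type mice. Members of these libraries are called TG members and WT members. The promoter of the transgene, the strain, the age and the number of animals per library are not given in the sources used here, and a step before the stripping may be missing from the label, which opens with the words "followed by". There was 1 library per genotype, captured with a droplet kit that reads RNA from its 5′ end, so library and genotype cannot be told apart and no test between them can be had. All intervals below are 95% intervals for counting error alone.

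In wound healing, fibroblasts activated by TGF-beta and by tension lay down collagen and fibronectin, and some assemble contractile bundles of smooth muscle actin that pull the wound edges together. Periostin and Cthrc1 mark the matrix-secreting side of this programme and Acta2 and Tagln the contractile side. Has2 makes hyaluronan, a long sugar polymer that fills the early wound matrix.

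In fibroblasts the targeted gene did not follow the label. Has2 stood at 133 UMIs per 1000000 UMIs of its class (CPM; interval 129 to 137) in TG members and 209 CPM (192 to 228) in WT members, a ratio of 0.634 (0.580 to 0.695). In the other fibroblasts it stood at 158 CPM in TG and 183 CPM in WT, a ratio of 0.862. Both classes thus held a lower Has2 level in the library labelled TG. Which part of the transgene's RNA, if any, is counted as Has2 is not given in the sources used here, so that this level is no check of the label by itself, and every direction below is between the library labelled TG and the library labelled WT.

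The library labelled TG held far more members among its fibroblasts. Members were 1115 of 2140 fibroblasts in TG (52.1%, exact binomial interval 50.0% to 54.2%) and 86 of 1821 in WT (4.72%, 3.79% to 5.80%). The ratio of the shares was 11.0 (8.85 to 13.9), while fibroblasts as a whole were 14.8% of kept barcodes in TG and 10.8% in WT, a ratio of 1.37. Members held 57.1% of all fibroblast UMIs in TG and 5.60% in WT. They were deep cells in both libraries, with a median of 28596 UMIs in TG and 31985.5 UMIs in WT.

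**Figure D1:**
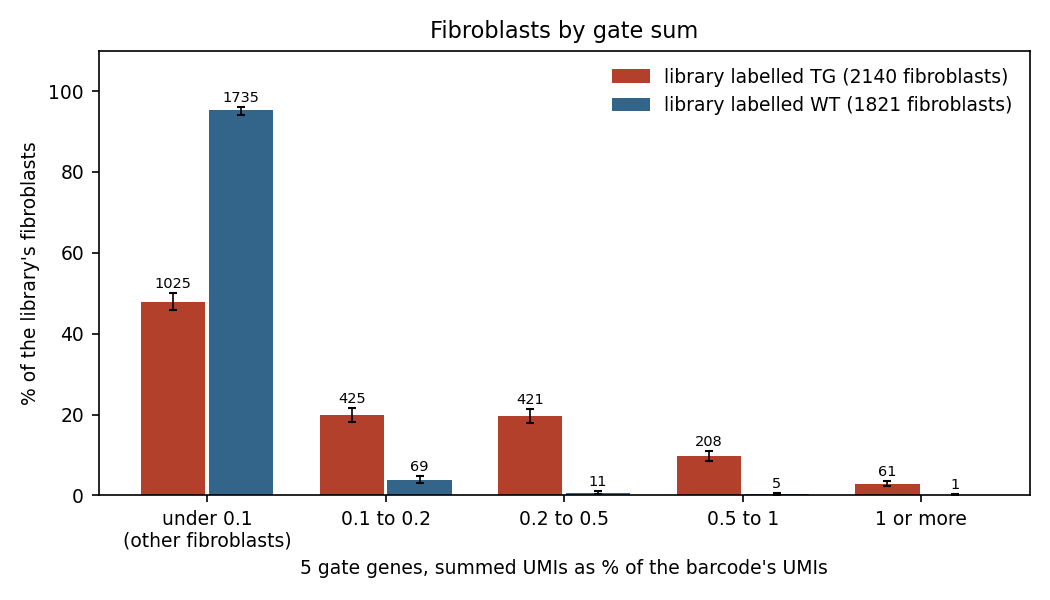
Share of each library's fibroblasts (vertical axis, %) by the summed UMIs of the 5 gate genes as a percentage of the barcode's UMIs (horizontal axis); bars are the library labelled TG and the library labelled WT, lines are exact 95% binomial intervals, and numbers are cells. In TG 425, 421, 208 and 61 fibroblasts fell into the 4 bins from 0.1% upward, against 69, 11, 5 and 1 in WT.

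The plot of fibroblasts by gate sum shows where the members of each library lay. The median gate sum over all fibroblasts was 0.107% of UMIs in TG, just above the threshold, and 0.00514% in WT, and 11.8% of TG fibroblasts against 42.3% of WT fibroblasts had no gate UMI at all. Among members the median was 0.255% in TG and 0.137% in WT, so that WT members crowded close to the threshold. Just outside it, from 0.08% to 0.1%, lay 102 TG and 32 WT fibroblasts, and just inside, from 0.1% to 0.12%, lay 100 and 31. Since a gate sum is a share of UMIs, a shallow barcode can pass on a single UMI, as 17 TG members and 7 WT members did. With each fibroblast of at least 2000 UMIs thinned to that number before the gate, 54.7% of 2057 TG fibroblasts and 9.28% of 1616 WT fibroblasts passed, a ratio of 5.89.

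The 5 gate genes were carried mainly by periostin, a secreted protein that binds collagen and integrins. Postn gave 61.9% of gate UMIs in TG members and 76.4% in WT members, and it was the gate gene with most UMIs in 813 of 1115 and 70 of 86 cells. Its level was 2260 CPM in TG members and 1301 CPM in WT members. Cthrc1, a secreted protein of the collagen-producing fibroblast, stood at 662 CPM in TG members and 222 CPM in WT members. Lrrc15, a membrane protein known from fibrotic and tumour stroma, stood at 322 CPM in TG members and 86.3 CPM in WT members. These 5 genes chose the cells, so their levels are a description.

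The contractile gate genes were the weakest part of the label. Tagln stood at 195 CPM (190 to 200) in TG members and 15.3 CPM (11.0 to 20.9) in WT members. Acta2 stood at 210 CPM (205 to 215) in TG members and 78.6 CPM (68.2 to 90.1) in WT members, and 1 WT cell held 27.3% of those WT UMIs. No UMI of either gene was found in 417 of 1115 TG members (37.4%) and in 59 of 86 WT members (68.6%). These cells were chosen on matrix genes alone, so the contractile part of the name does not hold for most WT members. Another marker of the label, Col1a1, the main chain of collagen I, had a UMI in 99.7% of TG members and 97.7% of WT members.

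Free RNA was read in leukocyte barcodes, which should lack these genes: 6118 in TG and 9053 in WT, with medians of 4776 and 4804 UMIs. Acta2 had a UMI in 10.1% of leukocyte barcodes in TG and 11.7% in WT, at 35.0 and 29.7 CPM, while Postn did so in 1.32% and 0.188%, Tagln in 1.14% and 0.851%, and Cthrc1 and Lrrc15 in under 0.5% of both. At 2000 UMIs per barcode Acta2 had a UMI in 17.6% of TG members against 5.86% of TG leukocyte barcodes, and in 13.7% of WT members (6.77% to 23.8%, 73 cells) against 6.61% of WT leukocyte barcodes. The lower bound for WT members lay just above the share in their leukocyte barcodes. Of leukocyte barcodes, 0.981% in TG and 0.409% in WT passed the gate share. Has2, which is not a gate gene, had a UMI in 0.850% of leukocyte barcodes in TG and 0.243% in WT. Its level there was low, at 3.56 and 0.483 CPM, and higher in TG, unlike in fibroblasts. Whether these UMIs were free RNA was not tested.

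At the same depth of 2000 UMIs per cell, with 36 TG and 13 WT members left out as shallower, the gate genes separated the libraries' members unequally. Postn had a UMI in 84.2% of TG members and 82.2% of WT members. Lrrc15 had one in 38.6% and 13.7%, Cthrc1 in 60.1% and 23.3%, and Tagln in 17.5% of TG members and 1 of 73 WT members. Members of both libraries thus shared periostin at about the same frequency, and Lrrc15, Cthrc1 and Tagln were found more often in TG members. The shares for Acta2, 17.6% of TG members and 13.7% of WT members, had overlapping intervals. Without thinning, Postn had a UMI in 97.3% of TG members and 89.5% of WT members, Lrrc15 in 79.9% and 52.3%, Cthrc1 in 92.4% and 76.7%, Tagln in 42.2% and 12.8%, and Acta2 in 49.9% and 29.1%.

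The gate has a contractile arm (Tagln and Acta2, at least 0.05% of UMIs) and a matrix arm (Postn, Lrrc15 and Cthrc1, at least 0.05%). Both arms were met by 222 TG members (19.9%, 17.6% to 22.4%) and 2 WT members (2.33%, 0.283% to 8.15%). The matrix arm alone was met by 882 TG members and 83 WT members, and the contractile arm alone by 11 and 1. Nearly all cells with both arms were thus TG cells, and gating on Tagln and Acta2 alone, at the same 0.1%, left 131 TG and 2 WT cells.

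Within the library labelled TG the cells with both arms could be set against those with the matrix arm only, a contrast the gate itself chose in part, so that it is read as a description. All genes with at least 20 UMIs over the compared cells gave 5.20% at least 2-fold higher and 5.41% at least 2-fold lower in cells with both arms. Of 24 other contractile genes 23 were higher, 8 of them at least 2-fold, while 8678 of all 13990 genes were higher. Myl9, the regulatory light chain of smooth muscle myosin, stood at 208 CPM with both arms and 22.9 CPM with the matrix arm only, a ratio of 9.08 (8.24 to 10.0). Tpm2, a muscle tropomyosin, stood at 304 and 82.9 CPM (ratio 3.67), and Cnn2, a calponin that binds actin, at 236 and 70.0 CPM (ratio 3.38), both arms first. Among the highest ratios were also those of the matrix genes Tnn, encoding tenascin-W (1303 CPM with both arms, 358 CPM with the matrix arm only), and Col7a1, the collagen of the fibrils that anchor epidermis to dermis (504 and 142 CPM). Tnmd, a membrane glycoprotein of tendon, stood at 152 CPM with both arms and 35.5 CPM with the matrix arm only, and was named after its values were seen.

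In the opposite direction, 11 of 13 genes of the universal or adventitial fibroblast list and 12 of 14 interferon response genes were at least 2-fold lower with both arms than with the matrix arm only. Clec3b, the plasminogen-binding protein tetranectin, had a ratio of 0.151 (0.140 to 0.163), both arms over matrix arm only. Pi16, the marker of adventitial fibroblasts, stood at 117 and 491 CPM in the same cells. The chemokine Cxcl9, an interferon target, had the lowest ratio, at 4.98 CPM with both arms and 78.1 CPM with the matrix arm only, and was also named after its values were seen. Il6 stood at 299 CPM with both arms and 645 CPM with the matrix arm only, while Col1a1 was close in both (27881 and 23022 CPM). Markers of pericytes stayed low in both kinds of cell: Rgs5, which the rule limited, had 0.733 and 0.674 CPM, and Notch3 had 7.18 and 2.54 CPM. Myh11, the smooth muscle myosin heavy chain, had 10.4 CPM with both arms and 0.595 CPM with the matrix arm only, and the part of mural cells in these values was not tested.

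**Figure D2:**
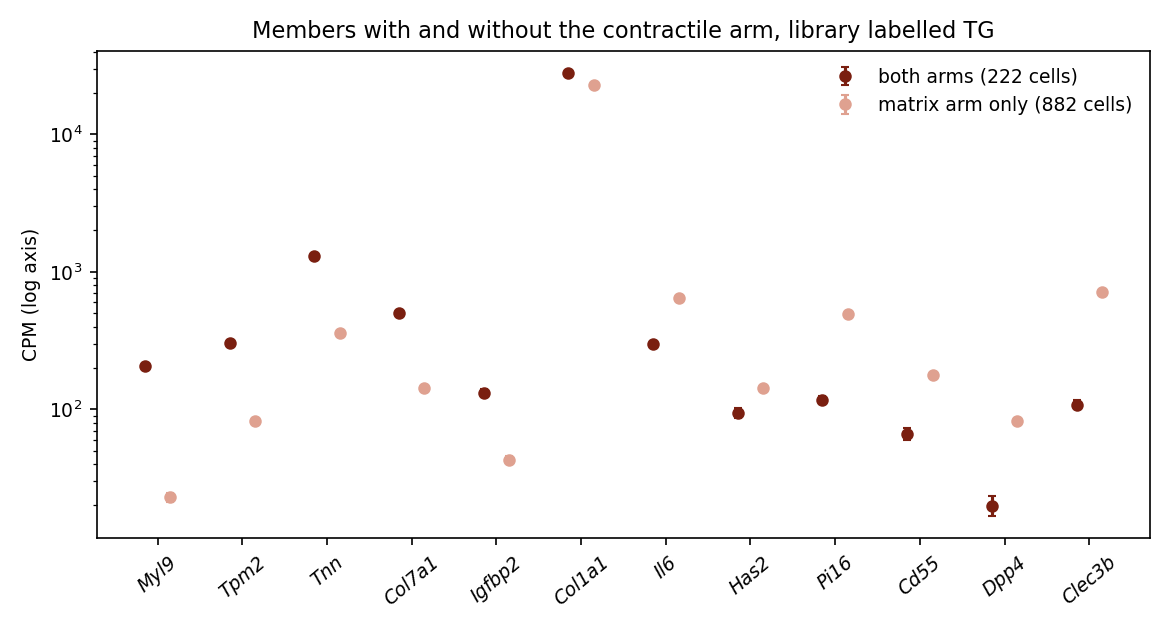
Level (vertical log axis, CPM) of 12 genes in members of the library labelled TG with both arms of the gate (222 cells) and with the matrix arm only (882 cells); lines are exact 95% Poisson intervals. Myl9, Tpm2, Tnn, Col7a1 and Igfbp2 lie higher with both arms, and Il6, Has2, Pi16, Cd55, Dpp4 and Clec3b lie lower.

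Many contractile genes are targets of serum response factor, which binds the CArG box. As examples picked among contractile genes, Acta2 is a gate gene, and Myl9 and Cnn2 were not used by the gate. The 250 bases before the start of these 3 genes are printed. They come from RefSeq promoters on GRCm38.p6, are read 5′ to 3′ on the gene's strand, and have CArG boxes in capitals, a motif that reads the same on both strands, which were thus searched at once.
Myl9, chr2:156775214-156775463, plus strand: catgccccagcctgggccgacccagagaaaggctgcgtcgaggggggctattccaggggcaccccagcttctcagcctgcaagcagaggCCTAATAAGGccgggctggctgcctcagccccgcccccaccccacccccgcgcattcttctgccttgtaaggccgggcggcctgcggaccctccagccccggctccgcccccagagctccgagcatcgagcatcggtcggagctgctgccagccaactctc
Cnn2, chr10:79988350-79988599, plus strand: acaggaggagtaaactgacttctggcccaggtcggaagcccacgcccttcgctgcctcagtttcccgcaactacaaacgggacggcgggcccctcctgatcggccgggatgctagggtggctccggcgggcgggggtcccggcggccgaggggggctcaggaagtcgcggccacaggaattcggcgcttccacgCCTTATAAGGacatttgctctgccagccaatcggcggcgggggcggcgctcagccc
Acta2, chr19:34255374-34255623, minus strand: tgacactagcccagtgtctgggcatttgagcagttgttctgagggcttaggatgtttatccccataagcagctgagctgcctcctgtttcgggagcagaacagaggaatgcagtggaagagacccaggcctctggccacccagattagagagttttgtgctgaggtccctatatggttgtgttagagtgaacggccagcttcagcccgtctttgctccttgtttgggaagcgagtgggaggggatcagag

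The box lies 161 to 152 bases before the start in Myl9 and 56 to 47 bases before it in Cnn2, and the letters of a strict box were not found in the Acta2 window. Near matches that differ from a strict box by a single base were not searched for or marked. The Acta2 window holds such stretches, ccctatatgg and ccttgtttgg, and the Myl9 window holds ccttgtaagg. The lack of a strict box in Acta2 is thus no lack of similar stretches. Of 24 contractile genes with a promoter in the table, gate genes included, 5 had a box (20.8%), against 482 of 32851 start windows of all genes (1.47%). A contractile gene was counted if any of its windows had a box, while the second share counts single windows. These shares are therefore not like measures. The 5 genes with a box were Myl9, Cnn2, Acta1, Vcl and Fhl2. Tpm2, with a higher ratio between the arms than Cnn2, was not among them and is not printed. The printed windows thus do not stand for the genes that separate the arms. A match is a description of the sequence and not a site of binding.

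Gene levels were then compared between TG members and WT members, as CPM over the summed UMIs of each class (32169202 UMIs in TG, 2608301 UMIs in WT). Of 14146 genes with at least 20 UMIs over both, 1903 (13.5%) were at least 2-fold higher and 1131 (8.0%) at least 2-fold lower in TG members. With at least 100 UMIs these shares were 9.19% and 6.06% of 10812 genes. In the other fibroblasts, 6.05% were at least 2-fold higher and 2.42% at least 2-fold lower in TG. Of all genes compared, 41.4% were higher in TG members, and 44.0% were higher in TG in the other fibroblasts. The median log2 ratio over all genes was -0.16 in members. The lists below are read beside these shares and this median.

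Of 13 fibrillar and fibril-associated collagens, 12 were higher in TG members and 9 at least 2-fold, with a median log2 ratio of 1.32. Other fibroblasts had 10 of 13 higher in TG and 4 at least 2-fold, with a median of 0.58. Col1a1 stood at 23999 CPM in TG members and 5443 CPM in WT members, a ratio of 4.41 (4.34 to 4.48), and Col1a2, the second chain of collagen I, at 17417 and 4258 CPM (ratio 4.09). Col11a1, a minor fibrillar chain, had a ratio of 6.26 and Col14a1, a collagen on the fibril surface, of 5.36. Col3a1, the early wound collagen, had 24689 CPM in TG members and 9907 CPM in WT members, and Col5a3 showed almost no difference (964 and 972 CPM). Col1a1, Col1a2 and Col3a1 also belong to the fibroblast rule, which set a lower limit to their sum in both libraries alike.

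The per-cell spread of Col1a1 was wide but displaced as a whole. Among members with at least 2000 UMIs, the 10th, 50th and 90th percentiles of the level were 9618, 21327 and 40995 CPM in 1079 TG cells, and 879, 4699 and 9052 CPM in 73 WT cells. The 10th percentile of the TG cells thus lay above the 90th of the WT cells. The cells of 1 library are not replicates, so this describes the libraries only.

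Collagens outside the fibril differed among themselves. Of 8 measured, 4 were at least 2-fold higher and 2 at least 2-fold lower in TG members. Col7a1 stood at 219 CPM in TG members and 18.4 CPM in WT members, a ratio of 11.9 (8.96 to 16.1). Col8a1, a short network-forming collagen, went the other way with 93.8 CPM in TG members and 298 CPM in WT members, as did Col4a1 of basement membranes (408 and 883 CPM).

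Genes that modify collagen followed in part, and genes of its export did not. Of 20 modifying and cross-linking genes, 17 were higher and 4 at least 2-fold higher in TG members (median log2 ratio 0.42). Those 4 were the collagen-binding protein Sparc (16959 CPM in TG, 5249 CPM in WT), the prolyl hydroxylase subunits P4ha3 (ratio 3.19) and P4ha2 (ratio 2.40), and Pcolce, which speeds removal of the procollagen tail (ratio 2.03). Of 12 genes of endoplasmic reticulum folding and export, 0 passed 2-fold and 9 were lower, with a median log2 ratio of -0.40. The chaperone Hspa5 stood at 1346 CPM in TG members and 1927 CPM in WT members, and Mia2, of large-cargo exit, at 73.6 and 129 CPM.

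Matricellular and adhesive glycoproteins were split. Of 22 measured, 10 were at least 2-fold higher and 1 at least 2-fold lower in TG members. The difference was not particular to members. In the other fibroblasts 9 of 22 were at least 2-fold higher in TG, with a median log2 ratio of 0.70 in both classes. Fn1, the fibronectin of the provisional matrix, stood at 1727 CPM in TG members and 266 CPM in WT members, where a single cell held 45.9% of the UMIs; without that cell WT members stood at 146 CPM. Tnn stood at 558 CPM in TG members and 80.5 CPM in WT members (ratio 6.93), and Mfap4, a microfibril protein, at 558 and 95.8 CPM (ratio 5.83). C1qtnf3, a secreted C1q-like protein, had 252 CPM in TG members and 26.8 CPM in WT members, of which 1 cell held 67.1%. Tnc, encoding tenascin-C, was the gene on the other side, with 5020 CPM in TG members and 10114 CPM in WT members (ratio 0.496).

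Small proteoglycans that coat collagen fibrils were higher in TG members for 6 of 9 genes and at least 2-fold for 4. Other fibroblasts had 7 of 9 higher in TG and 1 at least 2-fold. Aspn stood at 535 CPM in TG members and 104 CPM in WT members, and Lum, a rule gene, at 1424 and 330 CPM. Ogn had a ratio of 3.72 and Prelp of 3.06. Prg4, which encodes the lubricant lubricin, was lower, with 1768 CPM in TG members and 3893 CPM in WT members, and Dcn, another rule gene, had a ratio of 0.733.

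**Figure D3:**
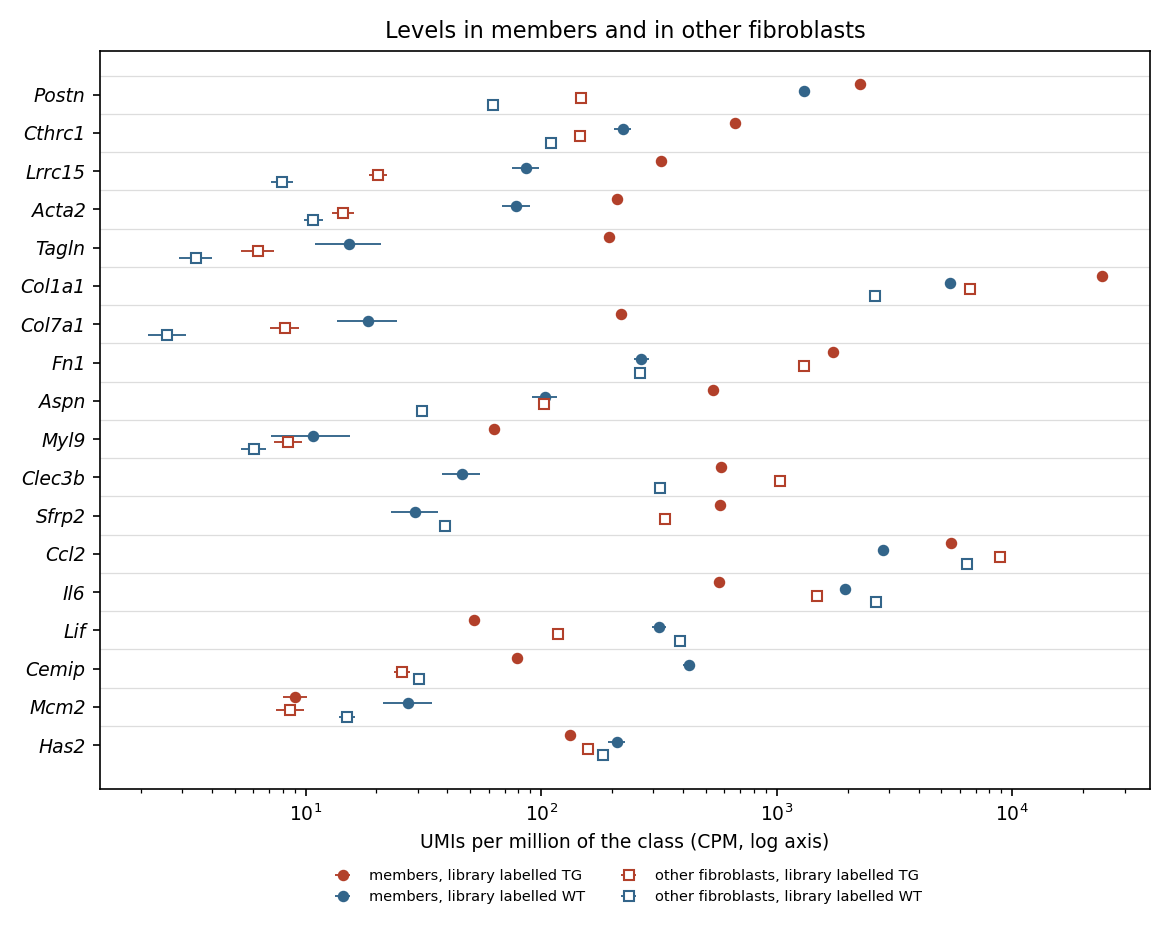
Levels (horizontal log axis, CPM) of 18 genes (rows) in members (filled circles) and other fibroblasts (open squares) of the library labelled TG (red) and of the library labelled WT (blue); lines are exact 95% Poisson intervals. Col1a1 lies at 23999 CPM in TG members and 5443 CPM in WT members, while Il6, Lif, Cemip and Has2 lie lower in TG members.

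Contractile genes beyond the gate were split. Of 24 measured, 12 were higher and 6 at least 2-fold higher in TG members, with a median log2 ratio of 0.00; with median-ratio scaling, which sets the median of all genes to 0, 19 were higher. Myl9 stood at 62.9 CPM in TG members and 10.7 CPM in WT members (ratio 5.86), Tpm2 at 131 and 38.7 CPM (ratio 3.37) and Cnn2 at 106 and 40.6 CPM (ratio 2.60). Mylk, the kinase of the myosin light chain, had 995 UMIs in TG members and 4 UMIs in WT members, a ratio of 20.2 (7.85 to 74.2). Cnn1, the smooth muscle calponin, had 56 UMIs in TG members and 0 in WT members, which against a floor of 3 UMIs in the class is at least 1.51-fold higher. None of the 12 lower genes passed 2-fold.

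Genes of TGF-beta signalling did not move as a group. Of 15 ligands, activators and receptors, 3 were at least 2-fold higher and 1 at least 2-fold lower, and of 11 targets and inhibitors 0 passed 2-fold (median log2 ratio -0.32). Ltbp1, which tethers latent TGF-beta to the matrix, stood at 52.5 CPM in TG members and 15.7 CPM in WT members. Tgfbr2, a receptor, stood at 176 and 64.0 CPM in the same classes, and the ligand Tgfb3 at 12.6 and 4.60 CPM. Inhba, the chain of activin A, was lower at 971 CPM in TG members and 1963 CPM in WT members, as was its inhibitor Fst (ratio 0.614). Of 12 receptors of collagen and fibronectin, 2 were higher, 1 of them at least 2-fold, and 1 was at least 2-fold lower. The collagen integrin chain Itga11 stood at 36.2 CPM in TG members and 6.90 CPM in WT members, where 1 cell held 50.0% of the UMIs, and the fibronectin integrin chain Itga5 at 430 and 791 CPM.

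Inflammatory mediators were lower in TG members for 16 of 27 genes and higher for 11, close to the 41.4% of all genes that were higher. At least 2-fold, 9 were lower and 4 higher, beside 8.0% and 13.5% of all genes. Other fibroblasts had 21 of 27 lower in TG, 2 of them at least 2-fold, with a median log2 ratio of -0.37 against -0.35 in members. Among members with a gate sum from 0.1% to 0.2% the majority turned, with 16 of 27 higher in TG, 6 at least 2-fold higher and 7 at least 2-fold lower. Il6, a cytokine of acute inflammation, stood at 570 CPM (562 to 579) in TG members and 1958 CPM (1905 to 2013) in WT members, a ratio of 0.291. Lif, of the same cytokine family, stood at 52.0 and 316 CPM (ratio 0.164), and Csf3, the granulocyte growth factor, at 157 and 638 CPM (ratio 0.246). Ptges, which makes prostaglandin E, had 150 CPM in TG members and 698 CPM in WT members. The monocyte chemokine Ccl2 was on the other side, with 5498 CPM in TG members and 2834 CPM in WT members (ratio 1.94), and the neutrophil chemokine Cxcl1 differed little (5457 and 6276 CPM). Cxcl13, a B cell chemokine, had 14.3 CPM in TG members and 74.4 CPM in WT members, where 1 cell also held 50.0%. Ccl20 had 239 UMIs in TG members and 0 in WT members, at least 6.46-fold higher against the floor of 3 UMIs.

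Of 9 hyaluronan synthesis genes, Has2 included, 0 passed 2-fold. Has1 stood at 677 CPM in TG members and 989 CPM in WT members. Of 13 genes of hyaluronan breakdown and binding, 3 were at least 2-fold higher and 1 at least 2-fold lower. Cemip, which starts the breakdown of hyaluronan outside the cell, stood at 79.3 CPM in TG members and 424 CPM in WT members (ratio 0.187). Most Cemip UMIs of WT members, 344 and 481, lay in 11 and 5 cells with gate sums from 0.2% to 0.5% and from 0.5% to 1%, and from 0.1% to 0.2% the ratio was 0.474. Hexa, a lysosomal enzyme of hyaluronan breakdown, stood at 95.8 CPM in TG members and 38.3 CPM in WT members. Of 24 matrix proteases and inhibitors, 3 were at least 2-fold higher and 0 lower in TG in the other fibroblasts. In TG members 4 were at least 2-fold higher and 1 lower. Mmp3, stromelysin, was the lower gene with 775 CPM in TG members and 2737 CPM in WT members, while Mmp23 had a ratio of 4.55 and the inhibitor Timp2 of 2.71. Mmp9, a gelatinase, had 76.5 CPM in TG members and 8.43 CPM in 4 cells of WT.

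Genes of the universal or adventitial fibroblast, a resting type found around vessels, were higher in TG members for 12 of 13 genes and at least 2-fold for 8 (median log2 ratio 1.47). Clec3b stood at 583 CPM in TG members and 46.0 CPM in WT members (ratio 12.7, 10.6 to 15.3), Dpp4, a surface peptidase, at 69.1 and 7.67 CPM (ratio 9.02), and Cd55, a complement inhibitor, at 154 and 42.2 CPM (ratio 3.65). Pi16 stood at 410 CPM in TG members and 238 CPM in WT members. In the other fibroblasts 12 of 13 were higher in TG too, with a median log2 ratio of 0.83 and 4 genes at least 2-fold, and Clec3b had a ratio of 3.21 there.

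Genes of cell division were lower in TG members for 14 of 14 genes, 9 of them at least 2-fold, with a median log2 ratio of -1.22. The replication helicase genes Mcm2 (9.05 CPM in TG members, 27.2 CPM in WT members) and Mcm5 (12.7 and 37.6 CPM) had the lowest ratios, and the division marker Mki67 stood at 39.9 and 63.6 CPM. In the other fibroblasts 14 of 14 were lower in TG as well, 1 of them at least 2-fold, with a median log2 ratio of -0.79. With a gate of 0.2%, which leaves 17 WT members, the direction turned, with 13 genes higher in TG members.

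Interferon response genes were higher in TG members for 11 of 14 genes and at least 2-fold for 4 (median log2 ratio 0.69). Other fibroblasts had 13 of 15 higher in TG, 0 of them at least 2-fold, with a median log2 ratio of 0.31. Irf7, a transcription factor of this response, stood at 21.5 CPM in TG members and 8.43 CPM in WT members, and Oas1a, a sensor of viral RNA, at 16.1 and 6.90 CPM. With the gate of 0.2% only 1 gene was higher, and with cells thinned to 2000 UMIs 4 were. Hypoxia and glycolysis genes stayed near the background, with 3 of 15 at least 2-fold higher and a median log2 ratio of 0.08; Bnip3, of mitochondrial turnover, stood at 47.8 CPM in TG members and 12.3 CPM in WT members.

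Of 21 fibroblast transcription factors, 3 were at least 2-fold higher and 5 at least 2-fold lower in TG members. Klf2 stood at 89.5 CPM in TG members and 19.2 CPM in WT members, Twist2, a factor of dermal fibroblasts, at 160 and 375 CPM, and Sox11 at 41.7 and 117 CPM. Genes of papillary, hair follicle sheath and adipogenic fibroblasts pointed both ways, with 5 of 15 at least 2-fold higher and 2 at least 2-fold lower. Mest, an imprinted gene of growing mesenchyme, had 1009 UMIs in TG members and 3 in WT members (ratio 27.3, 9.30 to 132), and Acan, the proteoglycan aggrecan, had 209 and 1 (ratio 16.9, 3.01 to 672). Apoe, a lipid carrier, stood at 165 CPM in TG members and 39.1 CPM in WT members. Coch, encoding cochlin, stood at 25.1 CPM in TG members and 187 CPM in WT members, where 1 cell held 51.1% of the UMIs.

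**Figure D4:**
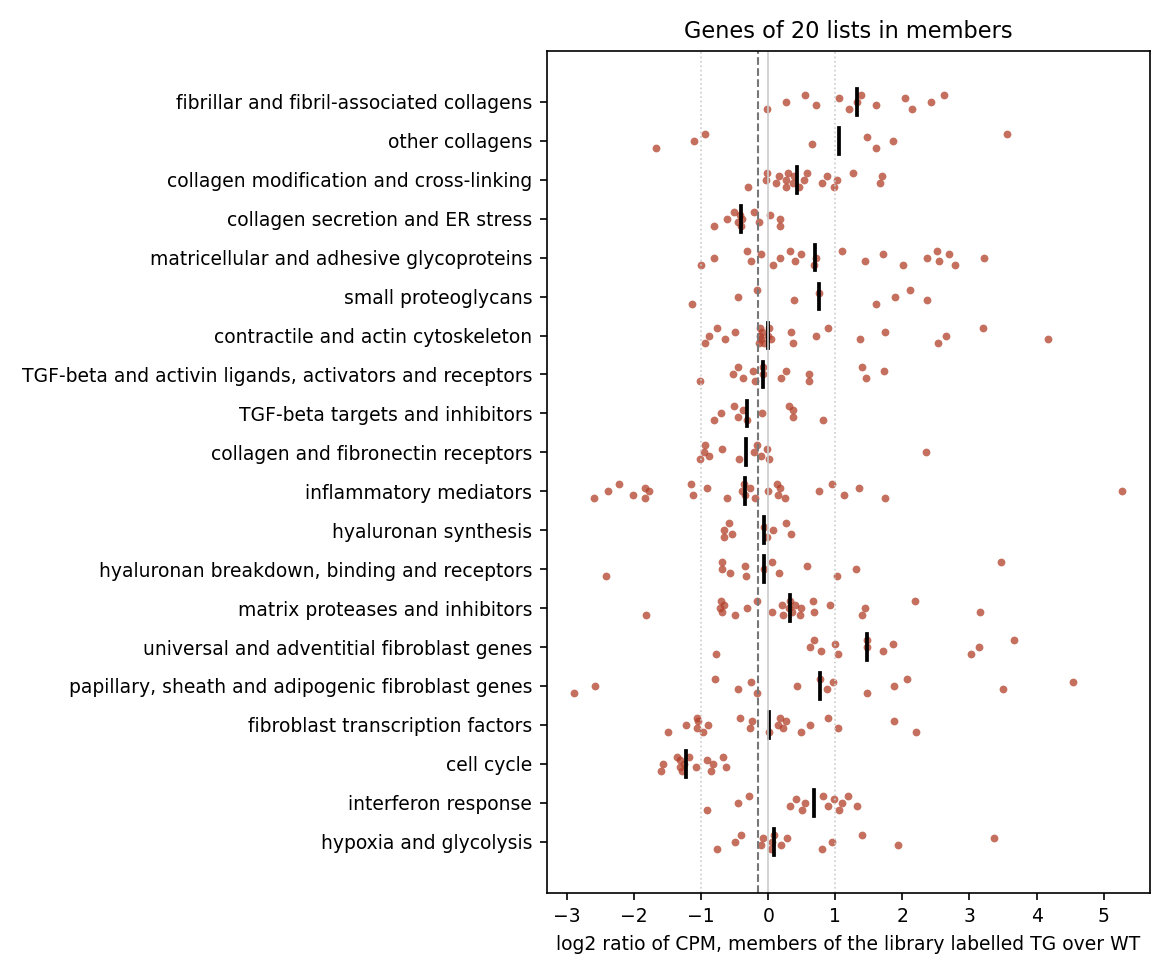
Log2 ratio of CPM, members of the library labelled TG over members of the library labelled WT (horizontal axis), for each measured gene (points) of 20 lists (rows); thick bars are list medians, the dashed line is the median of all genes (-0.16) and dotted lines mark 2-fold. The medians range from -1.22 for cell cycle genes to 1.47 for universal and adventitial fibroblast genes.

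Among all genes with at least 100 UMIs and 50 CPM in the higher class, the largest ratios belonged to genes with few or no UMIs in WT members. Igfbp2, an insulin-like growth factor binding protein, had 1973 UMIs in TG members (61.3 CPM) and 0 in WT members, at least 53.3-fold higher against the floor of 3 UMIs. Its UMIs came from 14.1% of TG members, and members held 98.7% of its UMIs in all TG fibroblasts. Sfrp2, a secreted Wnt-binding protein, stood at 576 CPM in TG members and 29.1 CPM in WT members (ratio 19.8), with a UMI in 87.5% and 18.6% of cells. Sbsn, encoding suprabasin, had a ratio of 38.5, Ecrg4 of 18.6, and Ptn, the heparin-binding factor pleiotrophin, stood at 69.1 CPM in TG members and 3.45 CPM in WT members.

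The secreted lectins Reg3g (178 CPM in TG members, 2.30 CPM in WT members) and Reg1 (90.6 and 1.15 CPM), the matrix-associated Megf6 (76.8 and 2.30 CPM) and the haemoglobin-binding protein Hp (963 and 76.3 CPM) were also among the 10 highest, as was Clec3b. Reg3g had 6 UMIs in 2 WT members and Reg1 had 3 UMIs in 1 (ratio 78.8, 26.9 to 382), and 1 WT cell held 53.8% of the Hp UMIs. The ratios of Reg3g and Reg1 therefore rest on 2 and 1 WT cells.

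The 10 lowest ratios were those of Ch25h, Thbs4, Coch, Lif, Il13ra2, Cemip, Cxcl13, Thbd, Ptges and Pid1. Ch25h, which makes 25-hydroxycholesterol, stood at 9.98 CPM in TG members and 146 CPM in WT members, of which 1 cell held 41.1%. Thbs4, the matrix protein thrombospondin 4, stood at 367 CPM in TG members and 2856 CPM in WT members, and its UMIs came from 27.3% and 43.0% of cells. Il13ra2, the decoy receptor of interleukin-13, had a ratio of 0.170 and Thbd, the thrombin receptor thrombomodulin, of 0.214. In the other fibroblasts Thbs4 had a ratio of 0.477 and Cemip of 0.848.

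WT members with a high gate sum were few. Of 17 WT members at or above 0.2%, 16 had no UMI of Tagln or Acta2 and 16 had Postn as their first gate gene; of 690 TG members at or above 0.2% these were 173 (25.1%) and 583 (84.5%). At least 10 UMIs of Cemip were found in 8 of the 17 WT cells and in 46 of the 690 TG cells (6.67%). Coch reached 10 UMIs in 4 of the 17 WT cells and in 16 of the 690 TG cells (2.32%). Thbs4 reached 10 UMIs in 4 WT cells (23.5%) and 96 TG cells (13.9%), and Spp1, encoding osteopontin, in 6 WT cells (35.3%) and 218 TG cells (31.6%), close to each other. With 17 cells from 1 library, these shares describe those cells only.

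Levels were also followed over bins of the gate sum, for genes that the gate did not use. In TG, Col1a1 stood at 6585 CPM in fibroblasts under the threshold and at 18439, 23736, 32859 and 36270 CPM in the bins 0.1% to 0.2%, 0.2% to 0.5%, 0.5% to 1% and 1% or more. Tnn followed the same order, with 15.5, 118, 418, 1371 and 2024 CPM, and Myl9 had 8.44, 11.2, 49.6, 139 and 280 CPM. The median depth of the 4 member bins was 27292.5 to 29084 UMIs, with no increase from the lowest to the highest bin.

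Cytokine, resting-type and Has2 levels went down over the same TG bins. Il6 stood at 1489, 920, 457, 203 and 112 CPM, and Clec3b at 1029, 821, 554, 275 and 112 CPM. Has2 stood at 158, 164, 133, 92.5 and 41.4 CPM. The TG members with the highest gate sums thus held the most collagen RNA and the least Il6 and Has2 RNA of the library's fibroblasts. Mki67 stood at 41.1, 41.8, 39.2 and 19.2 CPM in the 4 member bins, with no order among the first 3.

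Of the WT member bins, only that from 0.1% to 0.2% held more than 11 cells. Its 69 cells had 5523 CPM of Col1a1, 2022 CPM of Il6 and 51.1 CPM of Clec3b, against 2611, 2642 and 321 CPM in WT fibroblasts under the threshold. Col1a1 was thus higher, and Il6 and Clec3b lower, in these members than in the other fibroblasts of WT. In the WT bins from 0.2% upward, of 11, 5 and 1 cells, Col1a1 stood at 6115, 1968 and 12708 CPM. The increase from bin to bin in TG was thus not seen in WT, where these cells are few.

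**Figure D5:**
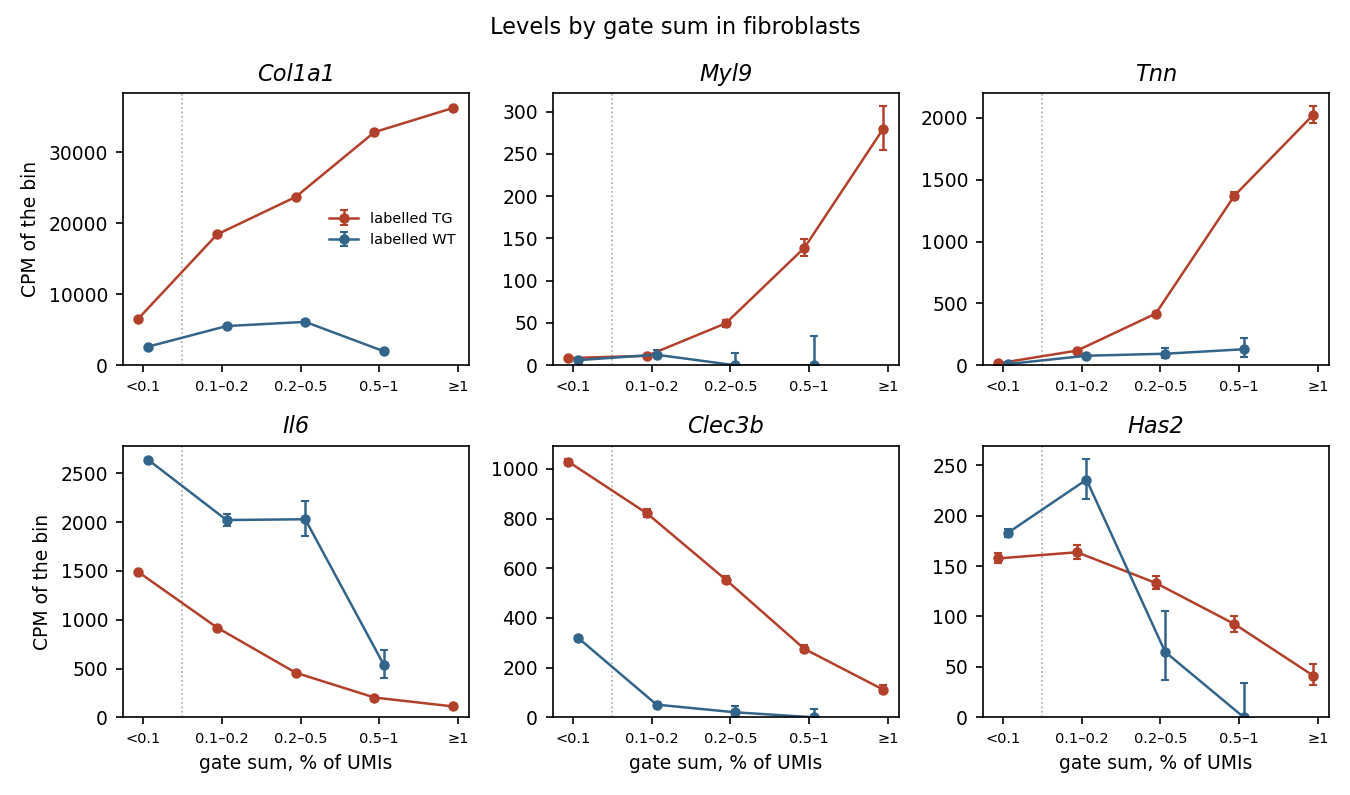
Level (vertical axis, CPM) of 6 genes in fibroblasts by gate sum (horizontal axis, % of UMIs) for the library labelled TG (red) and the library labelled WT (blue); lines are exact 95% Poisson intervals, bins of under 5 cells are not drawn, and the dotted line is the threshold. In TG Col1a1 increases from bin to bin to 36270 CPM and Il6 decreases to 112 CPM.

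The 2 libraries' members differ in gate sum, so the comparison was repeated in the bin from 0.1% to 0.2%, with 425 TG cells and 69 WT cells, an alternative added after seeing the data. In this bin 11.1% of 12177 genes were at least 2-fold higher and 9.53% at least 2-fold lower in TG. Of the 13 collagens 6 were at least 2-fold higher, with Col1a1 at 18439 CPM in TG and 5523 CPM in WT (ratio 3.34). Of the universal or adventitial list 11 of 13 were at least 2-fold higher, of the interferon list 11 of 14 were, and of the cell cycle list 11 of 14 were at least 2-fold lower.

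Acta2 and Myl9 were not higher in TG in that bin. Of 21 contractile genes 7 were higher there, 1 of them at least 2-fold, while 4353 of all 12177 genes were higher. Acta2 stood at 58.3 CPM in TG and 85.4 CPM in WT, and Myl9 at 11.2 and 12.5 CPM. The 2 WT members with both arms lay in this bin. They held 105 of its 192 WT Acta2 UMIs and 10 of its 28 WT Myl9 UMIs. The WT levels of both genes, and so their direction, thus rest in large part on 2 cells. Tagln, at 31.6 CPM in TG and 16.9 CPM in WT, kept its direction with a ratio of 1.87. Some ratios of genes named above lay nearer to 1 there, such as 1.56 for Tpm2, 0.349 for Ptges and 0.550 for Mmp3, and others further from it, such as 13.3 for Dpp4 and 22.4 for Sfrp2. Col7a1 stood at 45.1 CPM in TG and 5.78 CPM in WT. Igfbp2 had 148 UMIs in these TG cells and 0 in the WT cells.

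Members were finally set against the other fibroblasts of their own library. The rule used this contrast, so it is given with no reading of its own: 2.73% of 13923 genes were at least 2-fold higher in members in both libraries and 2.15% at least 2-fold lower. The highest outside the rule, ranked by the weaker library, were Tnn (members 35.9-fold over other fibroblasts in TG and 8.21-fold in WT), the BMP inhibitor Grem1 (7.89 and 6.38), the collagenase Mmp13 (8.36 and 4.96), Col23a1 (5.03 and 4.03) and Aspn (5.20 and 3.30), followed by Serpine2, Ncam1, Pappa, Cemip and Syne1. In WT the folds of Grem1 and Mmp13 came from the few members above 0.2%. The 69 WT members at 0.1% to 0.2% had 20.5 CPM of Grem1, against 18.6 CPM in the other fibroblasts, and 19.6 CPM of Mmp13, against 30.04 CPM. The lowest were the acute phase gene Saa1 (0.0852 in TG, 0.0742 in WT), Cxcl13 (0.0274 and 0.0889), Lcn2 (0.168 and 0.199), Ampd3, Sptssb, Procr (0.254 and 0.173), Pi16 (0.225 and 0.265), the complement gene C3 (0.293 and 0.140), Lbp and Tgm2.

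Lists moved with membership in both libraries as follows. Of 13 collagens 8 were at least 2-fold higher in members in both libraries. Of 27 inflammatory mediators 21 were lower in both and 7 at least 2-fold, and of 13 universal or adventitial genes 12 were lower in both and 7 at least 2-fold. Cell cycle genes were higher in members for 11 of 14 in both libraries. Counted in each library alone, 56.4% of all genes in TG and 67.9% in WT were higher in members. The share of all genes higher, or lower, in both libraries at once is not given here. By summed level Fn1 hardly separated the classes, at 1.33-fold in TG and 1.01-fold in WT, although TG stood far above WT in both. As given above, a single cell held much of the Fn1 RNA of WT members. Without that cell WT members stood below the 263 CPM of the other WT fibroblasts.

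The number of members and their levels both enter what all fibroblasts show. Over all fibroblasts Col1a1 stood at 16529 CPM in TG and 2770 CPM in WT, a ratio of 5.97. With TG levels of members and other fibroblasts combined in the UMI proportions of WT, the ratio would be 2.73. The same change took Postn from a ratio of 10.3 to 2.02. Postn is the main gate gene, so a drop of its ratio was built in by the rule and has no reading of its own. Col1a1 is a gene of the fibroblast rule but not of the gate. Fn1, which neither used, went from 5.86 to 5.03, so that its ratio changed little with the share of members.

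Summed markers of other cell types in members stood at up to 315 CPM, and some moved with the library. Summed macrophage and monocyte markers stood at 70.3 CPM in TG members and 20.7 CPM in WT members (ratio 3.40), where 3 of 10 markers were at 0. Pericyte or smooth muscle markers stood at 47.8 and 52.5 CPM, with Rgs5 at 0 in WT members. Of 9 measured, 8 were higher in TG members. Of the 137 UMIs of these markers in WT members, 120 were of Cspg4 in cells with the matrix arm only. Endothelial markers stood at 22.6 and 15.7 CPM, and keratinocyte markers at 19.5 and 8.05 CPM with 7 of 10 at 0 in WT members. Neutrophil markers stood at 241 CPM in TG members and 203 CPM in WT members. A UMI of them was found in 24.4% of TG members and 57.0% of WT members. Whether these UMIs were free RNA was not tested. T cell markers stood at 315 and 273 CPM, nearly all of it Thy1, which fibroblasts also express. Schwann cell markers stood at 143 and 85.9 CPM, and all 4 measured were higher in TG members. Of their 224 UMIs in WT members, 210 were of Ncam1 in cells with the matrix arm only. In TG members Ncam1 gave 1936 of 4598 in such cells and 1204 in cells with both arms. Skeletal muscle markers stood at 4.04 and 2.30 CPM, chondrocyte or osteoblast markers at 55.2 and 73.6 CPM, and adipocyte markers at 0.218 CPM in TG members and 0 in WT members. Immediate early and dissociation genes were higher for 13 of 14 genes, at 5451 CPM in TG members and 3144 CPM in WT members (ratio 1.73). Their part in the results was not tested. Of the deposited barcodes 79 occurred in both libraries, 1 of them a member in both.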

How the data were processed

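Per the labels, single cells of dissociated lesional skin were captured with a 5′ droplet kit. The deposited values are raw UMI counts per gene and barcode. The submitters' processing notes name Cell Ranger 9.0.1 and GRCm39. The molecule label is polyA RNA for TG and total RNA for WT, although both share a protocol, and was not used. The deposited matrices held 14622 barcodes in TG (134917708 UMIs) and 16999 in WT (143875454 UMIs), of which 14415 and 16837 were kept. Everything below was computed from these counts with Python 3.11.15, numpy 2.4.6 and scipy 1.17.1. Counts were summed over the cells of a class in a library and divided by its total (CPM); a list's ratios had 0.5 UMI added to both sums. Levels have exact Poisson, ratios exact conditional and shares exact binomial 95% intervals, which cover counting error only. A gene was compared with at least 20 UMIs over both classes, and called at a ratio of at least 2 or at most 0.5. No doublet caller was run; the limits on Ptprc, Pecam1 and Rgs5 remove some doublets, and an alternative also dropped the deepest 5% of fibroblasts.

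The members, the 20 lists and the markers were chosen with earlier results of these data known. Named genes were the gate genes, Has2, up to 4 genes of each list with the largest ratio and at least 100 UMIs, genes needed to describe a list, and the 10 highest and 10 lowest ratios in members and against other fibroblasts, with at least 50 CPM; mitochondrial, ribosomal, sex-linked, receptor segment, haemoglobin and unnamed genes were left out. The 12 highest and lowest genes between arms were ranked after the data were seen. Of 324 list genes 323 were in the files. For a symbol with several rows, the row with most UMIs was used. The code was tested on simulated data. Promoters came from RefSeq on GRCm38.p6, another build than that of the counts, and were matched by symbol.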

Additional observations from a re-analysis of the deposited data

How the results depend on the processing

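With 1 library per genotype, no result has a replicate check. No paired analysis was possible because each genotype has 1 library. The ratio of member shares stayed above 1 under all 10 alternatives that gave one: it was 5.47 with a gate of 0.05%, 34.5 with 0.2%, 5.89 with fibroblasts thinned before the gate and 55.7 with Tagln and Acta2 alone, which left 2 WT cells, so that levels were not run for that gate. The number of genes at least 2-fold higher in TG members was 893 with levels thinned to 2000 UMIs per cell and 994 with a minimum of 100 UMIs. The number at least 2-fold lower was 2513 with the gate of 0.2% (17 WT cells), 693 with median-ratio scaling, for which the median over all genes was -0.17 (log2), 5582 with no minimum and 655 with a minimum of 100 UMIs.

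Counts of list genes higher in TG members moved by over 1.5 times in 22 cases and by less in 278. For inflammatory mediators the count was 7 with the gate of 0.05%, 6 with thinning before the gate, 7 with per-cell means and 7 with thinned levels; for hyaluronan synthesis it was 5, 6 and 5 with gates of 0.05% and 0.2% and with median-ratio scaling. For collagen receptors it was 4, 5, 4 and 4 with the gate of 0.2%, thinning before the gate, median-ratio scaling and thinned levels. The cell cycle count was 13 with the gate of 0.2%, 2 with stricter limits on other cells and 1 with thinned levels; the interferon count was 1 with the gate of 0.2% and 4 with thinned levels. The contractile count was 7 in the bin from 0.1% to 0.2% and 19 with median-ratio scaling. The hypoxia count was 6 with thinning before the gate and 3 with thinned levels, other collagens 2 and export genes 1 with thinned levels.

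Single genes that passed 2-fold and changed sign, on the log2 scale, were Ccl20 (-0.38) with the gate of 0.05%, Cxcl13 (0.19), Apoe (-0.17), Mcm5 (1.49) and Irf7 (-1.13) with the gate of 0.2%, Acta2 (-0.55) and Myl9 (-0.17) in the bin from 0.1% to 0.2%, and Cnn1 (-0.19), Actg2 (-1.08), Tgfb3 (-0.46) and Irf7 (-0.14) with thinned levels. The cause was not tested. Thinned levels and the gate of 0.2% leave few WT UMIs by construction. Besides these 11 results that changed sign, 523 results for named genes under the alternatives were counted as moved and 996 as the same. The size of many gene ratios given above thus depended on the processing.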
